A study of Canis lupus familiaris with 22 samples.

Results

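The matrix metalloproteinases MMP3 and MMP9 and the tissue inhibitors of metalloproteinases TIMP1 and TIMP2 were examined in canine mammary tumours (CMTs) and healthy mammary tissue. The members were the probes whose target is a canine RefSeq transcript of one of these genes. They were 4 genes among 36619 targets on the array, and 8 of its 43603 probes that are not controls: 1 for MMP3, 4 for MMP9, 2 for TIMP1 and 1 for TIMP2. The probes of a gene are called A to D from the brightest to the dimmest, and 7 of the 8 were bright enough to be tested.

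Matrix metalloproteinases are zinc-dependent enzymes that are secreted as inactive proenzymes and cut the proteins of the extracellular matrix. MMP3 (stromelysin-1) cuts proteoglycans, fibronectin and laminin, and activates other proenzymes, that of MMP9 among them. MMP9 (gelatinase B) cuts denatured collagens and the type IV collagen of basement membranes, and is stored and released by neutrophils as well as made by macrophages and tumour cells. The TIMPs bind to the active site of these enzymes and block it. TIMP1 also binds the proenzyme of MMP9, and TIMP2 that of MMP2. In the mammary gland these enzymes act in branching of the ducts and in involution after lactation, and in tumours they are studied for their part in invasion.

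The RNA came from spontaneous tumours removed from dogs at surgery and from the mammary gland of dogs without a tumour, and 1-colour Agilent canine (v2) arrays were hybridised with it. The dogs were owned animals, and no engineered allele or induced lesion is described. The study reports a local anaesthetic before tissue was collected. For the animals, the labels give the diagnosis alone, with no breed, age, treatment or tumour type, so a difference in drugs between the groups cannot be seen. By the labels, 22 arrays were made, 2 (a and b) for each of 6 malignant, 3 benign and 2 healthy sample numbers. The labels call a and b biological duplicates, whereas the study's methods describe duplicate arrays of a sample. Each number was taken as 1 dog, and every count of dogs below rests on that. Scanner values of 19 arrays were analysed, 9 of 5 malignant, 6 of 3 benign and 4 of 2 healthy dogs. In the study's own record of histology the malignant tumours were of several kinds, and those with the numbers 3 and 5 were a myoepithelioma and a lipid rich carcinoma. The labels do not carry this record, and no group was formed from it.

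A level is the log2 processed signal of a probe minus the 75th percentile of its array, averaged over the arrays of a dog, so that 0 is the 75th percentile and 1 unit is a doubling of signal. An array had 62.2% to 83.2% of its probes well above background, and the lowest 75th percentiles were those of malignant dog 3 (299 and 330 units of signal), malignant dog 5 (451) and healthy dog 1 (361 and 517). The arrays of 1 dog correlated at 0.982 to 0.990 over all probes. Groups were compared with limma in 1 fit of all dogs, with Benjamini-Hochberg adjustment over the 35310 probes well above background on at least 4 arrays, and a probe was called at an adjusted p of at most 0.05. An interval is the 95% confidence interval of the fit, and n counts dogs.

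The label of the healthy tissue was checked first. The summed level of 3 exocrine pancreas genes, colipase (CLPS), carboxypeptidase B1 (CPB1) and REG3A, was 11.3 in healthy dog 1 and 9.15 in healthy dog 2, and lay between -2.39 and 0.08 in the 8 tumours. All 3 genes were called lower in malignant and in benign tumours than in healthy tissue (limma, largest adjusted p = 0.000349). Luminal epithelial genes (CDH1, ESR1, KRT19 and PGR, 4 of the 8 listed) were detected in both healthy dogs, except ESR1 in healthy dog 1. Their summed level was 4.11 and 5.58 in healthy dogs 1 and 2, against 4.14 to 6.99 in benign tumours and 0.06 to 6.61 in malignant tumours. Malignant dogs 3 and 5 had the lowest sums of all dogs, 1.65 and 0.06, and the lowest levels of CDH1, KRT19 and PGR. For ESR1 they were not the lowest, at -3.62 and -1.84 against, for instance, an undetected signal at -7.25 in malignant dog 1. Since both healthy dogs carried the pancreatic transcripts, their presence and the healthy group cannot be told apart in any comparison with healthy tissue.

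No probe of the 4 genes was called in any of the 3 comparisons, that is 0 of 7 probes each time. Over all probes tested, 0.416% were called between malignant tumours and healthy tissue, 0.379% between benign tumours and healthy tissue, and 0% between malignant and benign tumours. The called probes were nearly all lower in the tumours: 0 of 147 were higher in malignant tumours and 1 of 134 in benign tumours. At an unadjusted p of 0.05 or less, 2 of the 7 probes differed between malignant tumours and healthy tissue, both of MMP9, where 5.83% of all probes did. In benign tumours 4 of the 7 did, 2 of MMP9 and 2 of TIMP1, where 6.8% of all probes did. Between malignant and benign tumours it was 0 of 7, where 1.8% of all probes did.

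MMP3 was strongly detected in some tumours and not detected in others, and varied more between dogs than between groups. Its level was -6.95, -7.16, -0.999, -7.55 and 3.22 in malignant dogs 1 to 5, -6.55, 3.98 and 3.16 in benign dogs 1 to 3, and -6.85 and -7.20 in the healthy dogs. The probe was well above background on every array of malignant dogs 3 and 5 and benign dogs 2 and 3, and on no array of the other dogs. The 4 dogs with a signal thus belonged to both tumour groups, and 3 malignant dogs and 1 benign dog had none, like the healthy dogs.

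**Figure D1:**
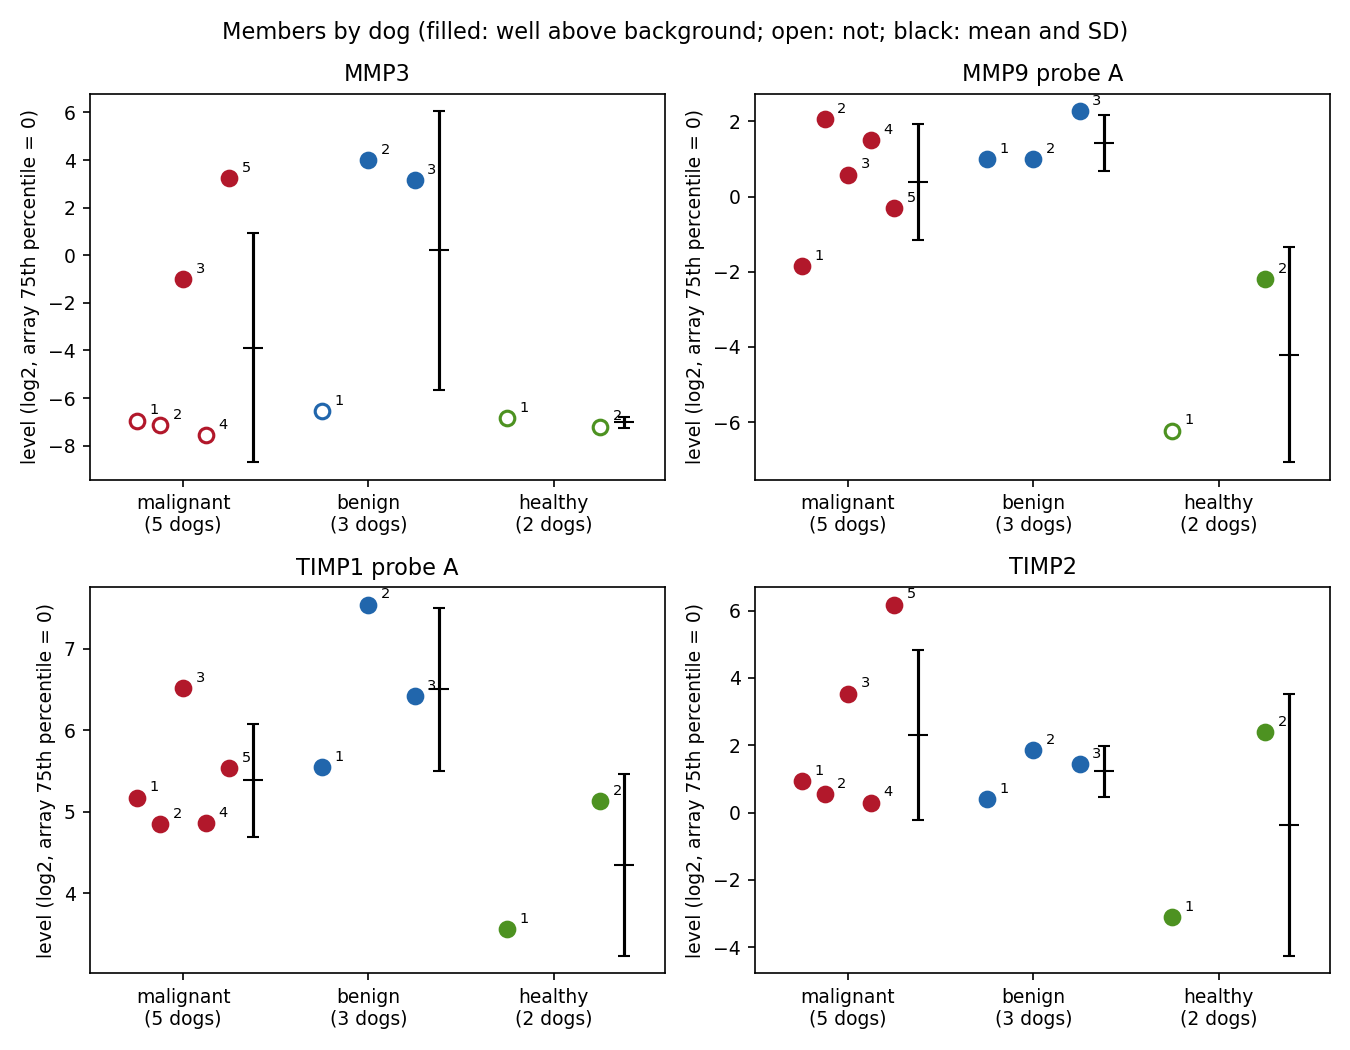
Level of the brightest probe of each member in each dog (log2, with 0 at the 75th percentile of the array; the vertical scales differ between panels). Points are dogs with their number, filled where the probe was well above background on every array of the dog and open where it was on none, and the black mark is the group mean with its SD. MMP3 is filled in 4 of 10 dogs, all of them with a tumour, and MMP9 is open in healthy dog 1 alone.

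The mean level of MMP3 was 0.20 ± 5.86 (SD, n = 3) in benign tumours, -3.89 ± 4.81 (SD, n = 5) in malignant tumours and -7.03 ± 0.25 (SD, n = 2) in healthy tissue. The spread within either tumour group was thus as large as the gap between the groups. Since no healthy array was well above background, only lower bounds can be given: MMP3 was at least 34.5-fold higher in benign tumours (limma adjusted p = 0.754) and at least 2.03-fold higher in malignant tumours (adjusted p = 0.954) than in healthy tissue. The bounds set the healthy level at the lowest signal well above background on each healthy array, a mean of -4.91 on the same log2 scale, and take the mean of all tumours, also those with no signal. Without malignant dog 5 the malignant mean fell below that floor, so that no bound was left, and it was 1.23-fold without malignant dog 3. The benign bound was 9.29-fold without benign dog 2, 12.3-fold without benign dog 3, and 358-fold without benign dog 1, which had no signal. The difference of malignant from benign tumours was -4.09 on the log2 scale, with an interval from -10.4 to 2.22 (adjusted p = 0.9998).

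The order benign, malignant, healthy is an order of means whose neighbours do not differ beyond their spread. The slide and the scan day of malignant dog 5 held none of the other arrays analysed. The highest malignant value thus has no comparison within a slide or a scan day. On the other slides the malignant and healthy arrays set side by side had no detected signal.

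MMP9 was higher in each of the 8 tumours than in both healthy dogs by its 2 bright probes, and higher still, on the mean, in benign than in malignant tumours. The level of probe A was -1.85, 2.05, 0.58, 1.49 and -0.31 in malignant dogs 1 to 5, 1.00, 0.99 and 2.27 in benign dogs 1 to 3, and -6.22 and -2.19 in healthy dogs 1 and 2. It was well above background on all 15 arrays of tumours and on both arrays of healthy dog 2, but on neither array of healthy dog 1. Malignant dog 1 lay only just above healthy dog 2, and the benign dogs lay within the range of the malignant dogs but for benign dog 3, the highest of all.

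The mean of MMP9 probe A was 0.39 ± 1.54 (SD, n = 5) in malignant tumours, 1.42 ± 0.74 (SD, n = 3) in benign tumours and -4.21 ± 2.85 (SD, n = 2) in healthy tissue. The malignant difference from healthy tissue was 4.60 on the log2 scale (SE 1.17), with an interval from 2.02 to 7.18, and missed the call (limma adjusted p = 0.327). The benign difference was 5.63 (SE 1.28), with an interval from 2.81 to 8.44, and missed it as well (adjusted p = 0.210). Both are differences as measured, and the value of healthy dog 1 in them is a signal at background. With every undetected signal set to the lowest signal well above background on its array, a setting added after the data were seen, the differences were 3.84 (adjusted p = 0.350) and 4.87 (adjusted p = 0.179), and with another background correction (normexp) 2.26 and 3.26. Of all probes tested, 4.29% lay higher in every malignant than in every healthy dog and 12.5% higher in every benign than in every healthy dog, as MMP9 probe A did in both. The difference of malignant from benign tumours was -1.03 on this scale, with an interval from -3.28 to 1.23 (adjusted p = 0.9998).

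The values of healthy tissue rest on 2 dogs that differed by 4.04 on the log2 scale, more than the 3.90 between the lowest and the highest malignant dog. Without healthy dog 1 the differences of MMP9 probe A were 2.58 for malignant and 3.61 for benign tumours, so that healthy dog 1 carried much of them. Without healthy dog 2 they were 6.62 (adjusted p = 0.0217) and 7.65 (adjusted p = 0.0134) as measured, where the one healthy dog left had no detected signal, and its spread was taken from the tumour groups. Against that dog the bounds were at least 34.2-fold for malignant and 69.6-fold for benign tumours. Healthy dog 1 also had the higher summed level of the pancreatic genes given above, and the part of these transcripts in the result was not tested. By the exact 2-sided permutation test over dogs, MMP9 probe A reached p = 0.0952 against malignant tumours and p = 0.200 against benign tumours, the smallest that these numbers of dogs allow.

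**Figure D2:**
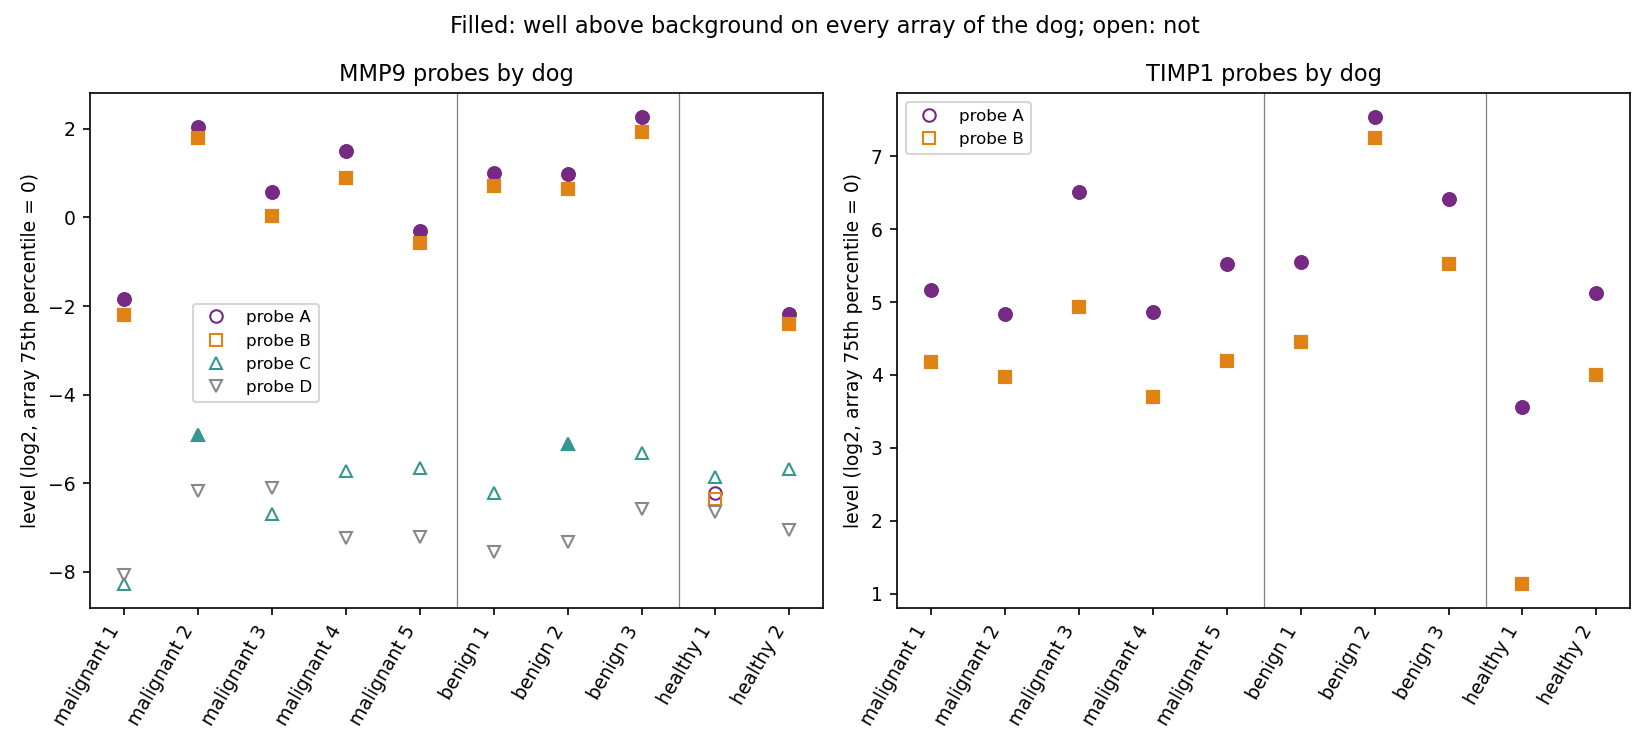
Level of each probe of MMP9 (left) and TIMP1 (right) in each dog (log2, with 0 at the 75th percentile of the array; dogs in columns, vertical lines between the groups). Filled symbols were well above background on every array of the dog. MMP9 probes A and B move together from dog to dog while C and D stay near background, and both TIMP1 probes are filled in all 10 dogs.

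Of the other MMP9 probes, 1 was as bright as probe A and the others lay near background. Probe B followed probe A over the 10 dogs (Pearson r = 0.999), with levels from -2.20 to 1.79 in malignant tumours, 0.64 to 1.94 in benign tumours and -6.35 and -2.42 in healthy tissue. Its differences were 4.37 (adjusted p = 0.366) for malignant and 5.48 (adjusted p = 0.218) for benign tumours. Probe C was well above background on 5 of 19 arrays, in malignant dog 2 and benign dogs 2 and 3, with levels from -8.28 to -4.91 over all dogs. None of these was a healthy array, and no difference of this probe is read. Probe D was well above background on 0 of 19 arrays and was not tested. All 4 probes are assigned to the same RefSeq transcript, and no position within it is given here, so that the bright and the dim probes were not placed on it.

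One slide with arrays of all groups had healthy dog 2 as its healthy array, where MMP9 probe A was detected, and there it was 3.61 higher in the malignant and 3.73 higher in the benign arrays on the log2 scale. The other slides with healthy tissue held an array of healthy dog 1, and their differences of 2.07 and 6.87 for malignant and 4.98 for benign arrays include its undetected signal. With the slide as a block in the limma fit, the differences were 4.80 (adjusted p = 0.270) and 5.54 (adjusted p = 0.178). This fit counted arrays rather than dogs in its degrees of freedom, so its p-values are not those of a comparison of dogs.

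Markers of the cells that carry MMP9 were measured in the same dogs. The summed level of 4 macrophage genes (CD163, CD86, FCGR1A and SLC11A1, of 10 listed) was 3.59 to 5.20 in malignant tumours, 4.97 to 6.08 in benign tumours, and 1.18 and 3.53 in healthy dogs 1 and 2. FCGR1A, a receptor for antibody on macrophages, rose in benign tumours by 4.04 on the log2 scale (SE 0.63, limma adjusted p = 0.0207), but was not called without healthy dog 1 (adjusted p = 0.332), benign dog 2 (0.100) or benign dog 3 (0.108). Of the 4 macrophage genes it was the 1 called in benign tumours, and 0 were called in malignant tumours, where 0.379% and 0.416% of all probes were called. With an unadjusted limma p of 0.05 or less, 3 of the 4 were higher in malignant and 3 in benign tumours, against 2.27% and 3.15% of all probes. The summed level of 4 neutrophil genes (CXCR2, ELANE, LTF and S100A8, of 10 listed) was 1.68 to 7.92 in malignant tumours, 5.76 to 8.46 in benign tumours, and 0.43 and 3.77 in the healthy dogs. This sum follows its brightest genes, S100A8 and LTF. In malignant and benign tumours S100A8 differed from healthy tissue by 2.84 and 5.65, LTF by 0.94 and 2.12, and CXCR2 by 0.12 and 1.92. ELANE went the other way, by -0.44 and -0.85. By limma 0 of 4 were called in either tumour group. At an unadjusted p of 0.05 or less, 0 differed in malignant and 1 in benign tumours, where 5.83% and 6.8% of all probes did. The 8 genes were well above background in at least some tumours and in at least 1 healthy array each, so that none of these markers was absent. In tissue RNA fewer cells of a type and less RNA per cell cannot be told apart, and the part of these cells in the level of MMP9 was not tested.

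TIMP1 was detected in every dog, and its mean level was highest in benign tumours. The level of probe A was 5.17, 4.84, 6.52, 4.86 and 5.53 in malignant dogs 1 to 5, 5.54, 7.54 and 6.42 in benign dogs 1 to 3, and 3.56 and 5.13 in the healthy dogs. It was well above background on all 19 arrays. The benign dogs lay above both healthy dogs, as they did for 12.5% of all probes tested, whereas malignant dogs 2 and 4 lay below healthy dog 2.

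The mean of TIMP1 probe A was 6.50 ± 1.00 (SD, n = 3) in benign tumours, 5.38 ± 0.69 (SD, n = 5) in malignant tumours and 4.34 ± 1.11 (SD, n = 2) in healthy tissue. The benign difference from healthy tissue was 2.16 on the log2 scale (SE 0.75), or 4.46-fold with an interval from 1.41-fold to 14.2-fold, and was not called (limma adjusted p = 0.633). The malignant difference was 1.04 (SE 0.69), with an interval from -0.49 to 2.57 (adjusted p = 0.937). Without healthy dog 1 the benign and malignant differences of probe A were 1.37 and 0.25, and without healthy dog 2 they were 2.95 and 1.83. Probe B gave larger differences, 3.18 (SE 0.93, adjusted p = 0.476) for benign and 1.63 (SE 0.85, adjusted p = 0.889) for malignant tumours, and correlated with probe A at r = 0.966 over 10 dogs. Its level in healthy dog 1, 1.13, stood 2.87 below that in healthy dog 2. A single healthy dog decided the size of the benign difference of probe B: leaving out healthy dog 1 gave 1.74, and leaving out healthy dog 2 gave 4.62 (adjusted p = 0.0368).

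Malignant tumours had less TIMP1 than benign tumours on the mean, with a difference of -1.12 for probe A (interval from -2.45 to 0.22) and of -1.55 for probe B (interval from -3.19 to 0.095), with an adjusted p of 0.9998 for both in the limma fit. With either probe 4 of the 5 malignant dogs lay below all 3 benign dogs, all but malignant dog 3. With the slide as a block, in a fit that again counted arrays, the benign difference of probe A from healthy tissue was 2.14 and that of probe B 3.19 (limma adjusted p = 0.317 and 0.200). Within the 2 slides that held both benign and healthy arrays, probe A was 0.85 and 1.16 higher and probe B 0.97 and 1.96 higher. Within each of the 4 slides that held both tumour groups the malignant arrays were lower, with differences from -1.91 to -0.38 for probe A. In the order benign, malignant, healthy, neither pair of neighbours differed beyond its spread by this test.

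**Figure D3:**
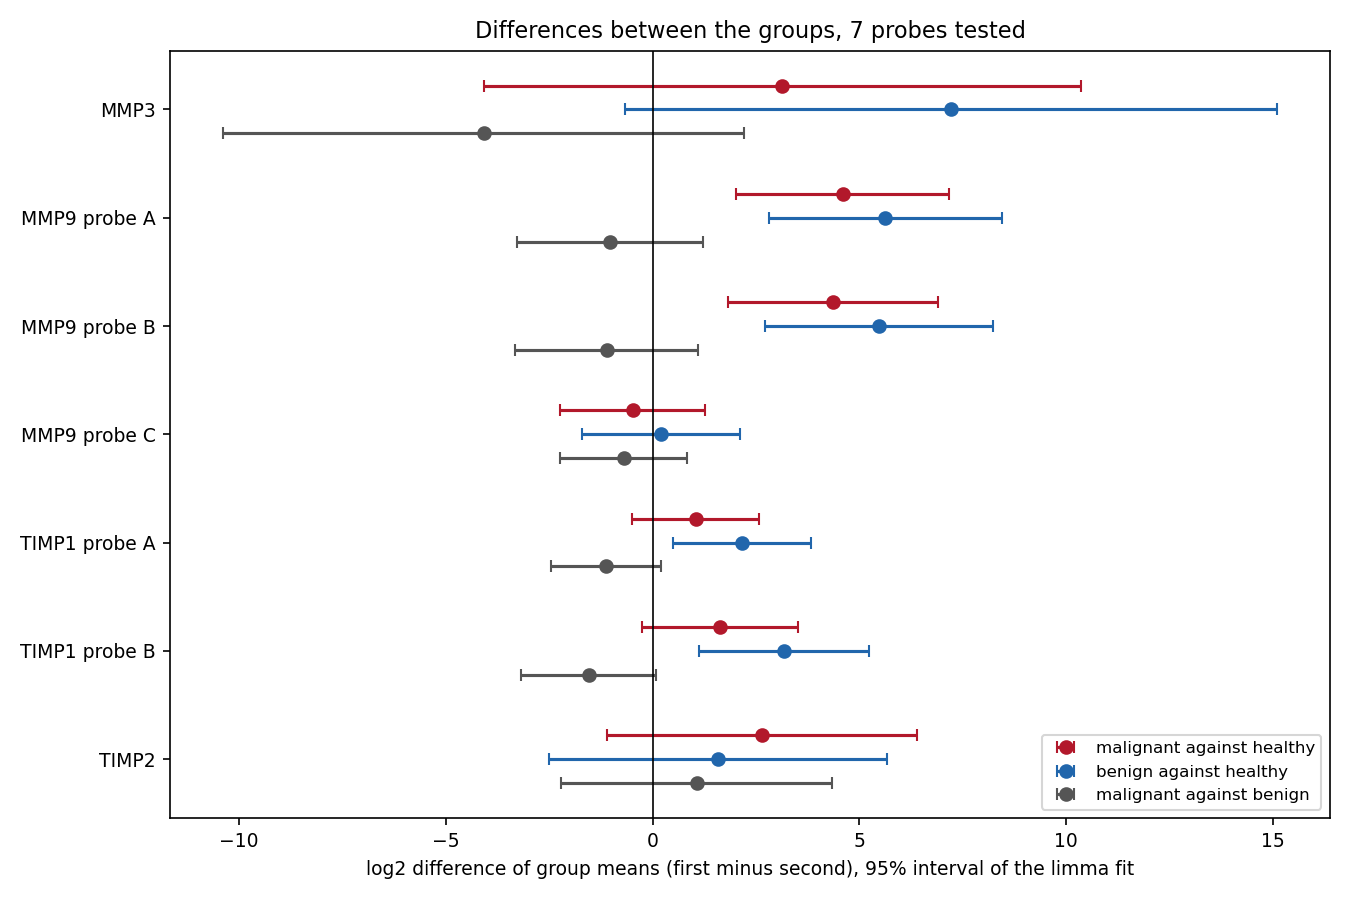
Difference between group means of each of the 7 probes tested (horizontal axis, log2, first group minus second), with the 95% confidence interval of the limma fit as bars; the healthy level of MMP3 is not well above background, nor is that of MMP9 probe C, nor MMP9 probes A and B in healthy dog 1, so these differences from healthy tissue are as measured. The intervals of MMP9 probes A and B from healthy tissue, and of both TIMP1 probes in benign tumours, lie above 0, and those of malignant against benign tumours span 0 for all 7 probes.

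TIMP2 differed more between dogs than between groups. Its level was 0.93, 0.54, 3.53, 0.29 and 6.18 in malignant dogs 1 to 5, 0.39, 1.85 and 1.43 in benign dogs 1 to 3, and -3.11 and 2.39 in healthy dogs 1 and 2. It was well above background on all 19 arrays. Malignant dogs 3 and 5 were the highest of all dogs, healthy dog 1 the lowest, and the remaining 7 dogs lay between 0.29 and 2.39. Malignant dogs 3 and 5 were also the malignant dogs with MMP3, and had the lowest summed levels of luminal epithelial genes, though not the lowest ESR1. Malignant dog 5 was also the only dog scanned on another day.

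The mean level of TIMP2 was 2.30 ± 2.53 (SD, n = 5) in malignant tumours, 1.23 ± 0.75 (SD, n = 3) in benign tumours and -0.36 ± 3.89 (SD, n = 2) in healthy tissue. Malignant tumours differed from healthy tissue by 2.66 on the log2 scale (interval from -1.09 to 6.41, limma adjusted p = 0.935) and benign tumours by 1.59 (interval from -2.50 to 5.68, adjusted p = 0.937). Both differences turned below 0 without healthy dog 1, to -0.091 and -1.16. With the slide as a block they were 1.64 and 1.51, and within slides they ran from -2.19 to 4.00 for malignant and were -1.43 and 0.70 for benign tumours. Between malignant and benign tumours the difference was 1.07 (interval from -2.20 to 4.34, adjusted p = 0.9998), and it was 0.098 without malignant dog 5 and 0.14 with the slide as a block. No neighbours in the order malignant, benign, healthy thus differed beyond their spread.

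The 4 genes did not follow one common order of dogs. Over the 10 dogs, MMP3 and TIMP1 probe A correlated at r = 0.763 (rho 0.758), MMP9 probe A and TIMP1 probe A at r = 0.622 (rho 0.261), and MMP3 and MMP9 probe A at r = 0.351 (rho 0.0788). TIMP2 correlated with TIMP1 probe A at r = 0.547 and with MMP9 probe A at r = 0.406, where the rank correlation was -0.127. These are descriptions over 10 dogs in 3 groups, whose arrays lay on slides that in part held several dogs, and MMP3 rests on 4 dogs with a signal.

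The genes most like each member were sought over the 10 dogs among 1321 genes with a symbol. MMP3 was most like ADGRE1, the macrophage surface protein F4/80 (r = 0.887, rho 0.709). Next came PTGS2, the inducible enzyme of prostaglandin synthesis (r = 0.879, rho 0.721), and ADORA2A, an adenosine receptor (r = 0.866, rho 0.527). ADGRE1 was itself dim, with levels from -6.58 to -3.67, and MMP3 was not detected in most dogs. PTGS2 was highest in benign dogs 3 and 2 and malignant dog 5, at 3.82, 2.67 and 1.11, where MMP3 was high too, whereas malignant dog 3, which had MMP3, lay at -0.80 and below malignant dog 2 (-0.18), which had none. MMP9 was most like IL18BP, the protein that binds and blocks interleukin 18 (r = 0.924, rho 0.891). The transcription factor STAT6 (r = 0.848, rho 0.6) and the apoptosis protease CASP8 (r = 0.814, rho 0.709) came next. IL18BP was -0.91 and 0.27 in the healthy dogs and 0.93 to 3.51 in the tumours.

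TIMP1 was most like TPM3, a tropomyosin of the actin filaments (r = 0.942, rho 0.903). SNAI2, a transcription factor of mesenchymal cells (r = 0.940, rho 0.915), and again the dim ADGRE1 (r = 0.927, rho 0.891) came next. TIMP2 was most like SLC1A3, a glutamate transporter (r = 0.977, rho 0.952), and the lysosomal enzyme GLB1 (r = 0.973, rho 0.964). TICAM2, an adaptor of Toll-like receptors (r = 0.932, rho 0.842), came next and was dim, with levels from -6.43 to -3.74. SLC1A3 was 5.66 in malignant dog 5, 2.68 in malignant dog 3 and -4.30 in healthy dog 1, the same extremes as TIMP2. These genes were chosen by their correlation, which is a description and carries no test.

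Of the other metalloproteinases and their inhibitors, 10 of 46 listed genes had a named probe and were tested, and 0 of 10 were called in any comparison by limma. At an unadjusted p of 0.05 or less, 1 was higher in malignant and 2 were higher in benign tumours than in healthy tissue, and 1 was lower in malignant than in benign tumours. Of all probes tested, 2.27%, 3.15% and 1.14% were so, in the same order. The median log2 difference over the 10 genes was 1.02 in malignant and 0.21 in benign tumours against healthy tissue, where that over all 28936 genes was 0.07 and 0.01. MMP12, the elastase of macrophages, lay -4.32 and -4.22 in the healthy dogs, -3.67 to -0.13 in malignant and -1.59 to 2.83 in benign tumours, so that the groups with a tumour did not overlap with healthy tissue. Of all probes tested, 4.29% lay higher without overlap in malignant and 12.5% in benign tumours. Its difference was 5.26 in benign (SE 1.28, limma adjusted p = 0.265) and 3.01 in malignant tumours (SE 1.17, adjusted p = 0.803). The benign difference was called with the dog as a random block (adjusted p = 0.0220), with scan day as a block (0.0213) and without benign dog 2 (0.0422). Fits with the dog as a random block, or with the slide or the scan day as a block, here and elsewhere, counted arrays rather than dogs in their degrees of freedom. Their p-values are thus not those of a comparison of dogs. The scan day set only malignant dog 5 apart. MMP7 (matrilysin), an enzyme of epithelial cells, was 4.73 higher in benign tumours (SE 2.09, adjusted p = 0.728) with overlap between the groups. ADAM17, which sheds tumour necrosis factor from the cell surface, was 1.26 higher in malignant tumours (adjusted p = 0.863). The inhibitors TIMP3 and RECK had the lowest differences of the list, -0.53 and -0.27 in malignant and -0.36 and -0.48 in benign tumours, and each of these turned positive without healthy dog 2. By the RefSeq table of genes, MMP12 and MMP3 are neighbours in a cluster of metalloproteinase genes.

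Of the plasmin system and other extracellular proteases, some of which activate proenzymes of metalloproteinases, 9 of 28 listed genes were tested and 0 of 9 were called by limma. At an unadjusted p of 0.05 or less, 0 differed in malignant and 2 in benign tumours, where 5.83% and 6.8% of all probes did. The median log2 difference was 0.26 in malignant and 1.22 in benign tumours. PLAU, the urokinase that makes plasmin, was 3.40 higher in benign tumours (SE 1.22, limma adjusted p = 0.646), and the protease inhibitor SERPINA1 was 2.42 higher (SE 0.78, adjusted p = 0.568). PLAU was not detected in healthy dog 1, and without that dog its benign difference was 1.52. Its level in benign dog 1, -3.06, lay below that in healthy dog 2, -2.97. In malignant tumours SERPINA1 and the cathepsin CTSS had the largest differences, 1.28 each (adjusted p = 0.898 and 0.937). The lowest were PLG (plasminogen) and ELANE (neutrophil elastase), -0.997 and -0.44 in malignant and -1.65 and -0.85 in benign tumours. PLG was well above background on 6 of 19 arrays.

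Of the partners, inducers and matrix substrates of metalloproteinases, 26 of 64 listed genes were tested and 0 of 26 were called by limma. At an unadjusted p of 0.05 or less, 1 was higher and 1 lower in malignant tumours, 7 were higher and 1 lower in benign tumours, and 5 were lower in malignant than in benign tumours. Of all probes tested, 2.27% were higher and 3.56% lower in malignant tumours, and 3.15% higher and 3.65% lower in benign tumours. Between the tumour groups, 1.14% of all probes were lower in malignant tumours. The median log2 difference was 0.43 in malignant and 1.30 in benign tumours against healthy tissue, and -1.05 between malignant and benign tumours, where 23 of the 26 genes were lower in malignant tumours and the median over all genes was 0.07. CXCL8, the chemokine that draws neutrophils, was -2.37 and -1.14 in the healthy dogs and 0.33, 5.47 and 5.45 in the benign dogs, a difference of 5.51 (SE 1.44, limma adjusted p = 0.357; 0.0302 with the dog as a random block, 0.0294 with scan day as a block and 0.0101 without benign dog 1). IL1A, a cytokine that induces MMP3, was not well above background on any healthy array and was at least 14.7-fold higher in benign tumours (adjusted p = 0.448; 0.0446 with the dog as a random block and 0.0384 with scan day as a block). Its benign levels were -2.71, -2.54 and 2.15, and without benign dog 3, the highest, the bound was 4.86-fold. In malignant tumours COL2A1, the collagen of cartilage, had the largest difference, 4.78 (SE 3.47, adjusted p = 0.942), from a level of 7.40 in malignant dog 3 and -7.62 in malignant dog 5. COL2A1 was not detected in malignant dog 5 or in healthy dog 1, and without healthy dog 1 the difference was 2.47. The chemokine CCL2 followed with 2.77 (SE 0.87, adjusted p = 0.589).

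The lowest differences of that list were those of EGF, a growth factor of epithelium. It was well above background on all 4 healthy arrays and on no malignant array, which gives a bound of at least 12.7-fold for healthy over malignant tissue (adjusted p = 0.213), while the benign difference was -3.80 (SE 1.28, adjusted p = 0.606). EGF was 0.43 in healthy dog 1 and -4.02 in healthy dog 2, and the malignant bound was 2.70-fold without healthy dog 1 and 59.3-fold without healthy dog 2, where EGF was called in malignant (adjusted p = 0.00893) and in benign tumours (0.0324). The matrix proteoglycans DCN and ACAN came next, DCN with -1.20 in malignant (adjusted p = 0.954) and ACAN with -1.43 in benign tumours (adjusted p = 0.850), and DCN turned to 0.64 without healthy dog 2.

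**Figure D4:**
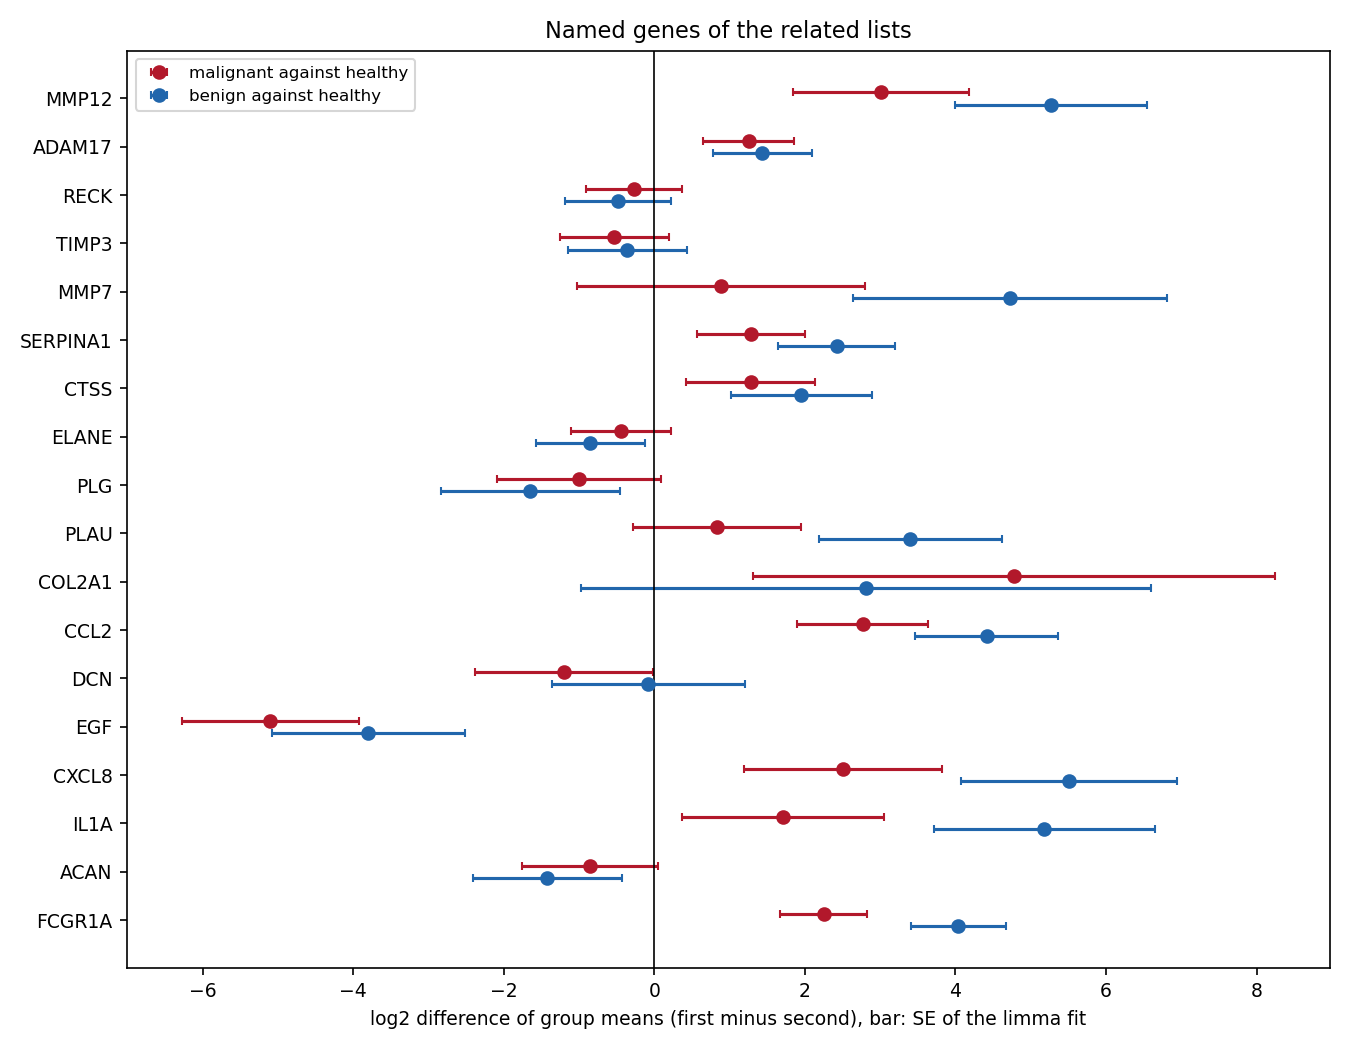
Difference from healthy tissue (horizontal axis, log2) of the named genes of the related lists, and of FCGR1A, in malignant (red) and benign (blue) tumours, with the SE of the limma fit as bars. The differences of IL1A and, in malignant tumours, EGF are as measured against a group that was not well above background. FCGR1A in benign tumours, at 4.04, is the one value plotted that was called.

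Of the cell types listed for reference, T cell genes (3 of 6 tested), fibroblast genes (6 of 10), endothelial genes (3 of 6), luminal epithelial genes (4 of 8), basal and myoepithelial genes (2 of 6), milk protein genes (2 of 5) and adipocyte genes (2 of 5) had 0 genes called in any comparison by limma. At an unadjusted p of 0.05 or less, 1 of them differed, a luminal epithelial gene between malignant and benign tumours, where 1.8% of all probes did. The summed level of the fibroblast genes, the cells that make much of the MMP3 and of the TIMPs of a tissue, was 8.26 to 10.9 in malignant tumours, 8.25 to 9.49 in benign tumours, and 6.07 and 10.2 in healthy dogs 1 and 2. Healthy dog 1, the lowest of all dogs for MMP9, TIMP1 and TIMP2, thus also had the lowest sum. Gene by gene it was the lowest for COL1A1, COL1A2, THY1 and VIM, but not for DCN or PDGFRB. The part of the fibroblast genes in the levels of the members was not tested.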

How the data were processed

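The authors deposited the scanner output of each array (Agilent Feature Extraction 11.5.1.1 per the submitters' processing notes), with processed signals that are background-subtracted intensity values, and a table of the median intensity of each spot on all 22 arrays, which is the scanner's median signal, equal in all 45220 spots wherever both exist. Malignant array 5b and both arrays of malignant dog 6 have values in that table alone here. RNA with an integrity number above the study's minimum was hybridised to duplicate arrays, which were averaged as 1 dog. The labels call the a and b arrays biological duplicates, whereas the methods describe duplicate arrays of a sample, and the study counts more benign and healthy dogs than the labels do, so the arrays averaged may not be of 1 animal.

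From these, spots of a probe were averaged, log2 was taken and the 75th percentile of each array subtracted (R 4.3.3, limma 3.58.1, and data.table in version 1.17.8). The planned background correction (normexp, offset 50) used the median signal, because the mean signal is not among the scanner columns. No member spot was an outlier and no spot was saturated. Symbols came from RefSeq accessions (assembly UU_Cfam_GSD_1.0), which named 2353 of 43603 probes. The scripts were tested on simulated data. Alternatives were other normalizations, filters, tables, blocks, tests and leaving out each dog.

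The 4 genes and all gene lists were chosen with earlier results of these data known. The genes named were every member probe, the 3 genes most like each member, the list genes called, and in each of the 3 lists of related genes the 2 with the largest and the 2 with the smallest difference in each tumour group. The number of dogs and arrays limits the precision. Per sample, 0 columns of values were left unused.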

Additional observations from a re-analysis of the deposited data

Results flagged for a closer look

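Malignant dog 6 entered no comparison with scanner values, but the table of median intensities holds both of its arrays, with no background taken off. On that scale (log2 median intensity minus the array's 75th percentile, mean of both arrays) 5 member probes lay above every healthy array. They were MMP3 at -1.36 against -3.44 to -3.02 on the healthy arrays, MMP9 probe A at -0.56 against -2.91 to -1.62, MMP9 probe B at -0.82 against -3.01 to -1.77, TIMP1 probe A at 6.82 against 3.48 to 5.13, and TIMP1 probe B at 5.53 against 1.06 to 4.01. TIMP1 in this dog was thus above all malignant arrays with scanner values, which reached 6.46 with probe A and 4.87 with probe B. None of the 5 malignant dogs with scanner values stood apart from the other 4 by Dixon's test for any member probe. Malignant dog 6 was not in that test, and the other groups are too small for it.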

How the results depend on the processing

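Leaving out MMP9 probe C, which is near background, 18 member differences were recomputed under each alternative that could give a value, 471 values in all, of which 454 kept their direction and their side of the threshold, 15 passed the threshold that the main result missed, and 2 changed sign. The 2 were TIMP2 without healthy dog 1, -0.0914 in malignant and -1.16 in benign tumours, whose values with 1 dog left out ran up to 5.41 and 4.34. With the arrays of a dog kept apart and the dog as a random block, MMP9 probe A passed in benign tumours (adjusted p = 0.0496, 5.63), and with scan day as a block too (adjusted p = 0.0444, 5.63). Only malignant dog 5 was scanned on another day, so the scan day block sets this dog apart and left the benign difference unchanged. Both fits counted arrays rather than dogs in their degrees of freedom. The SE of probe A in benign tumours was 1.25 with the random block and 1.28 in the main fit. The methods' t-test without adjustment gave p = 0.0327 (4.60) in malignant and 0.0391 (5.63) in benign tumours, and after Benjamini-Hochberg adjustment 0.9997 and 0.814. MMP9 probe B passed in the same 3 settings in both tumour groups. Without healthy dog 2, against a healthy dog in which they were not detected, MMP9 probes A and B passed in both groups, and TIMP1 probe B in benign tumours (4.62, adjusted p = 0.0368). Leaving out 1 dog each moved MMP9 probe A from 2.58 to 6.62 in malignant and from 3.61 to 7.65 in benign tumours. The smallest difference of MMP9 probe A over all alternatives was 2.26 in malignant and 3.26 in benign tumours, both with normexp. MMP9 probe C changed sign in benign tumours with normexp (-0.98), the value table (-0.75 with the same arrays and with all 22), undetected signals at the floor (-0.48), array a of each dog (-0.11) and without benign dog 2 (-0.0070; -0.0070 to 0.55 with 1 dog left out), between the tumour groups with normexp (0.56) the value table (0.31 and 0.37) and undetected signals at the floor (0.15), and in malignant tumours without malignant dog 1 (-0.82 to 0.025 with 1 dog left out). The log2 bound of MMP3 ran from -0.76 to 1.94 in malignant and from 3.22 to 8.48 in benign tumours when 1 dog was left out, and with normexp the bounds were 2.10-fold and 13.1-fold.

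The probes called between malignant tumours and healthy tissue, 147 in the main fit, were 47 with only probes above background on every array, 88 with 1 probe a gene, 252 with scan day as a block, 1420 and 32 by the methods' t-test without and with adjustment, and 96 to 951 with 1 dog left out. For benign tumours, 134 in the main fit, they were 41, 81, 212 with the dog as a random block, 272 with scan day, 37 with only the groups compared, 1725 and 0 by the methods' t-test, and 86 to 995 with 1 dog left out. Between the tumour groups the methods' t-test without adjustment called 802, and 0 to 2 were called with 1 dog left out. The higher share of calls moved with the dog as a random block (59 of 212 in benign tumours) and with scan day (57 of 252 in malignant and 94 of 272 in benign tumours). The cause of these shifts was not tested, except that fewer probes were tested where the filter or the choice of 1 probe a gene left fewer. Median differences of all probes moved to -0.49 in benign tumours with normexp to -0.36 with the value table and to -0.10 with undetected signals at the floor, a setting added after the data were seen, against 0.03 in the main fit.

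Dogs with the same number in different groups are different animals. With the dog number as a replicate block, 89 probes were called for malignant and 85 for benign tumours, and correlations of the deviations of same-numbered dogs ran from -0.174 to 0.106. MMP9 probe A was 4.17 in malignant (adjusted p = 0.705) and 5.33 in benign tumours (adjusted p = 0.305) under this block, in which RECK turned to 0.092 in malignant and TIMP3 to 0.026 in benign tumours. Of 790 values of 21 other named genes, 14 passed the threshold that the main result missed and 11 lost the call. MMP12, CCL2 and EGF in malignant and SERPINA1 in benign tumours passed with the methods' t-test without adjustment (p = 0.0369, 0.0269, 0.0111 and 0.0443), and the other 10 stand in the report beside MMP12, CXCL8, IL1A and EGF. FCGR1A in benign tumours lost its call under the replicate block (adjusted p = 0.293), with only the groups compared (0.288), without benign dog 2, benign dog 3 or healthy dog 1, and by the adjusted t-test, which in benign tumours also lost REG3A, CLPS and CPB1 (0.814 each) and in malignant tumours REG3A (0.222), and REG3A in benign tumours missed the call with only the groups compared (0.0786). Further changes of sign among these genes came from leaving out 1 dog. Without healthy dog 1 or 2 the malignant differences ran from -0.81 to 0.27 for RECK, -1.82 to 0.76 for TIMP3, -0.044 to 2.61 for CTSS, -1.68 to 0.79 for ELANE, -2.49 to 0.49 for PLG and -3.04 to 0.64 for DCN. With any dog left out the benign differences ran from -1.65 to 0.93 for TIMP3, -1.05 to 0.12 for RECK and -2.09 to 0.38 for ELANE, and TIMP3 was 0.15 without benign dog 3. Probes at background, such as MMP3 in healthy tissue, have only a bound, and with 3 benign and 2 healthy dogs no exact permutation test can go below 0.200.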
